A study of Macaca mulatta with 16 samples.

Results

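The regions described here had called peaks of open chromatin in memory CD8+ T cells of the blood and no called peak in the other sorted T cell populations of the study. They were found by merging the peaks of 16 ATAC-seq libraries wherever peaks shared at least 1 bp, and by counting a merged region as open wherever a library had called a peak there. A region was taken when it was open in all 4 memory CD8+ libraries and in none of the other 12, which held for 944 of 55449 regions (1.70%). At a stricter peak threshold the rule gave 760 regions, which covered 364 (38.6%) of the 944, so membership depended on where the lists ended. The set was thus chosen by the presence and absence of called peaks in all 16 libraries, and that pattern is a description and not a finding. ATAC-seq maps open chromatin by letting a transposase cut DNA that is not packed away.

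The libraries came from 2 healthy rhesus macaques, each sampled after and before 2-hydroxypropyl-beta-cyclodextrin, a cyclic sugar that takes up cholesterol. The animals were given 1 ml/kg of a 15% (w/w) solution under the skin each day for up to 120 days, and the samples taken before were untreated. From peripheral blood, 10000 cells of each of 4 populations were sorted at each time: memory CD8+, naive CD8+, memory CD4+ and naive CD4+ T cells. Each population and time therefore has 2 libraries, 1 per animal, and no animal was followed without treatment, so time and treatment cannot be told apart. Nothing used here states the animals' ages, the surface markers of the sort or the purity of the cells.

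CD8+ T cells recognise peptides on MHC class I and kill infected or transformed cells. Memory cells descend from naive cells that met their antigen, and their genes for killing and for cytokines are read out faster on a second encounter. In mouse and human, part of the chromatin opened during activation stays open in memory cells, much of it at enhancers bound by T-box, RUNX and AP-1 factors. Memory CD8+ cells share part of their open chromatin with memory CD4+ cells and another part with naive CD8+ cells. The regions here are those without a called peak in either of these or in naive CD4+ cells. Whether they opened during activation was not tested.

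The lists held 36307 to 42034 peaks, and those of memory CD8+ cells held 39426 after and 40316 before treatment in animal 1, and 39519 after and 40744 before in animal 2. The read depth behind a list was unknown, so a missing peak means that none was called and not that the chromatin was closed. The 2 shortest lists came from naive CD8+ cells of animal 1, with 37966 peaks after and 36307 before treatment. Without these 2 libraries the count of regions was 1121 in place of 944. The rule then asked for absence in fewer lists, which by itself lets the count rise. Positions are in rheMac10. No genome or annotation of that build was used here, so no genes, markers or sequences are given at these positions, and the sorted cell types were not checked against marker genes.

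The set was almost the same as the overlap of 2 wider sets, that of regions separating memory from naive CD8+ cells and that of regions separating memory CD8+ from memory CD4+ cells. Regions open in 4 of 4 memory CD8+ lists and 0 of 4 naive CD8+ lists numbered 2401 (4.33% of all regions), and 39.3% of them were open in memory CD8+ cells only. Regions open in 4 of 4 memory CD8+ lists and 0 of 4 memory CD4+ lists numbered 1596 (2.88%), and 59.1% of them were. The 2 sets had 947 regions in common. Of these 944 were also without a peak in all 4 naive CD4+ lists, 1 was open in 1 of those lists and 2 in 2. The lists of naive CD4+ cells thus removed 3 regions from the set, and those of naive CD8+ and memory CD4+ cells set its size. The same rule gave 212 regions for naive CD8+ (0.382%), 168 for memory CD4+ cells (0.303%) and the fewest for naive CD4+ cells (0.218%).

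Just outside the rule lay 290 regions open in all 4 memory CD8+ lists and in 1 of the other 12. The odd list was one of memory CD4+ cells for 154 of them (53.1%), one of naive CD8+ cells for 135 (46.6%) and one of naive CD4+ cells for 1 (0.345%). In those odd lists the peaks were weak, with a median area score at percentile 5.71 (quartiles 2.62 and 11.3) of the list. The area score is the value of the authors' peak caller for a peak and belongs to its own list. The strongest of these near misses, on chromosome 15 from 50769392 to 50771585, had a mean percentile of 67.7 in the memory CD8+ lists and of 0.877 in the naive CD8+ list of animal 1 after treatment. The next, on chromosome 2 from 102377285 to 102379917, had 66.7 in the memory CD8+ lists and 3.58 in the memory CD4+ list of animal 1 after treatment.

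A further 531 regions were open in 3 memory CD8+ lists and in none of the other 12. The missing list was that of animal 1 after treatment for 75 and before treatment for 199, and that of animal 2 after treatment for 177 and before treatment for 80. Animal 1 before and animal 2 after treatment were also the memory CD8+ lists that covered the fewest bases, 55.4 and 59.6 Mb, against 63.1 Mb in animal 1 after and 66.3 Mb in animal 2 before treatment. The part of this difference in the counts was not tested. In the 3 lists that held them, the median of these regions' mean percentile was 15.3, against 28.6 for the 944 regions and 31.0 for the 290 with 1 further list. The 2 strongest lacked a peak in animal 1 before treatment and were a region of chromosome 18 (1033538 to 1035171, mean percentile 45.6) and a region of chromosome 12 (100157915 to 100159669, mean percentile 43.5).

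Whether regions of this kind are found again in cells that did not choose them was asked by applying the rule to 1 animal and reading the result in the second animal. The merging itself used the peaks of all 16 libraries, and the set was taken up with earlier results of these data known. Both memory CD8+ lists of animal 1, and none of its other 6, had a peak in 1788 regions (3.22%). In animal 2 they were open in 69.9% of cases in the memory CD8+ list after and 76.5% in that before treatment. In the naive CD8+ lists of animal 2 the shares were 5.09% after and 6.32% before treatment. Memory CD4+ lists of animal 2 had 5.82% after and 8.22% before, and its naive CD4+ lists 1.45% after and 2.01% before treatment. Both memory CD8+ lists thus lay far above each of the other 6, with a mean of 73.2% ± 4.67 (SD, n = 2) against 4.82% ± 2.61 (SD, n = 6). The difference of 68.3 percentage points had an exact permutation p = 0.0357, one-sided, the smallest that 28 splits of 2 against 6 lists allow. All 8 lists read came from 1 animal, so neither the SD nor this p measures a spread between animals. With the lists kept in blocks by time the exact permutation p was 0.0625. Over all 55449 regions the same 8 lists had 64.4% to 67.8% of regions open. That share includes regions open in all 16 libraries, which the choice could not take. Among regions not open in all 16 libraries, these 8 lists had 36.5% to 42.7% open.

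In the reverse reading, animal 2 gave 1944 regions (3.51%), which in animal 1 were open in 81.1% of cases in the memory CD8+ list after and 74.3% in that before treatment. In animal 1 the naive CD8+ lists had 9.98% after and 10.1% before treatment. Its memory CD4+ lists had 11.9% after and 8.13% before, and its naive CD4+ lists had 1.23% after and 1.44% before treatment. The mean was 77.7% ± 4.80 (SD, n = 2) in memory CD8+ and 7.13% ± 4.64 (SD, n = 6) in the other lists, a difference of 70.5 percentage points (exact permutation test, one-sided, p = 0.0357). Here too the lists read came from 1 animal, and with blocks by time the exact permutation p was 0.0625. Over all 55449 regions the lists of animal 1 differed more than those of animal 2, with 61.6% after and 58.7% before treatment open in naive CD8+ lists and 65.4% to 69.5% in the other 6. Among regions not open in all 16 libraries, the naive CD8+ lists of animal 1 had 31.5% after and 26.5% before treatment open. Its other 6 lists had 38.3% to 45.6% of those regions open. In both readings naive CD8+ and memory CD4+ cells held a small share of the regions and naive CD4+ cells the smallest. Of the regions chosen in animal 1, 52.8% were among the 944, and of those chosen in animal 2, 48.6%. The 944 are by definition the chosen regions with the full pattern in the animal read as well. These shares therefore restate the readings and add no separate support.

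Reading across time within the same animals gave higher shares. Regions chosen in the 8 libraries before treatment numbered 1565 (2.82%). After treatment they were open in 85.8% of cases in memory CD8+ cells of animal 1 and 77.9% in those of animal 2, against 0.447% to 9.14% in the other 6 lists. Regions chosen after treatment numbered 1514 (2.73%). Before treatment these were open in 79.7% in animal 1 and 89.0% in animal 2, against 0.594% to 6.21% in the other 6 lists. The differences were 78.4 and 81.1 percentage points (exact permutation test, one-sided, p = 0.0357 each), and over the 4 readings the Benjamini-Hochberg adjusted p was 0.0357 for each. The same 2 animals gave both times, so these readings repeat the animals and not only the cell type. All 4 readings use the same 16 libraries in turn to choose and to read, so they are not 4 independent tests. With the lists kept in blocks by time or animal, the 16 splits allow no p below 0.0625, and the p was 0.0625 in all 4 readings, which is not past the threshold of 0.05. Leaving out 1 of the 2 memory CD8+ lists of the part that was read gave differences from 65.0 to 85.7 percentage points over the 4 readings. Only 7 splits then remained, too few for a p below 0.05. Numbers in the deposited names differ between the 4 populations of animal 2 while the titles give it 1 name, and if those numbers were animals, population and animal would coincide in its 8 lists.

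**Figure D1:**
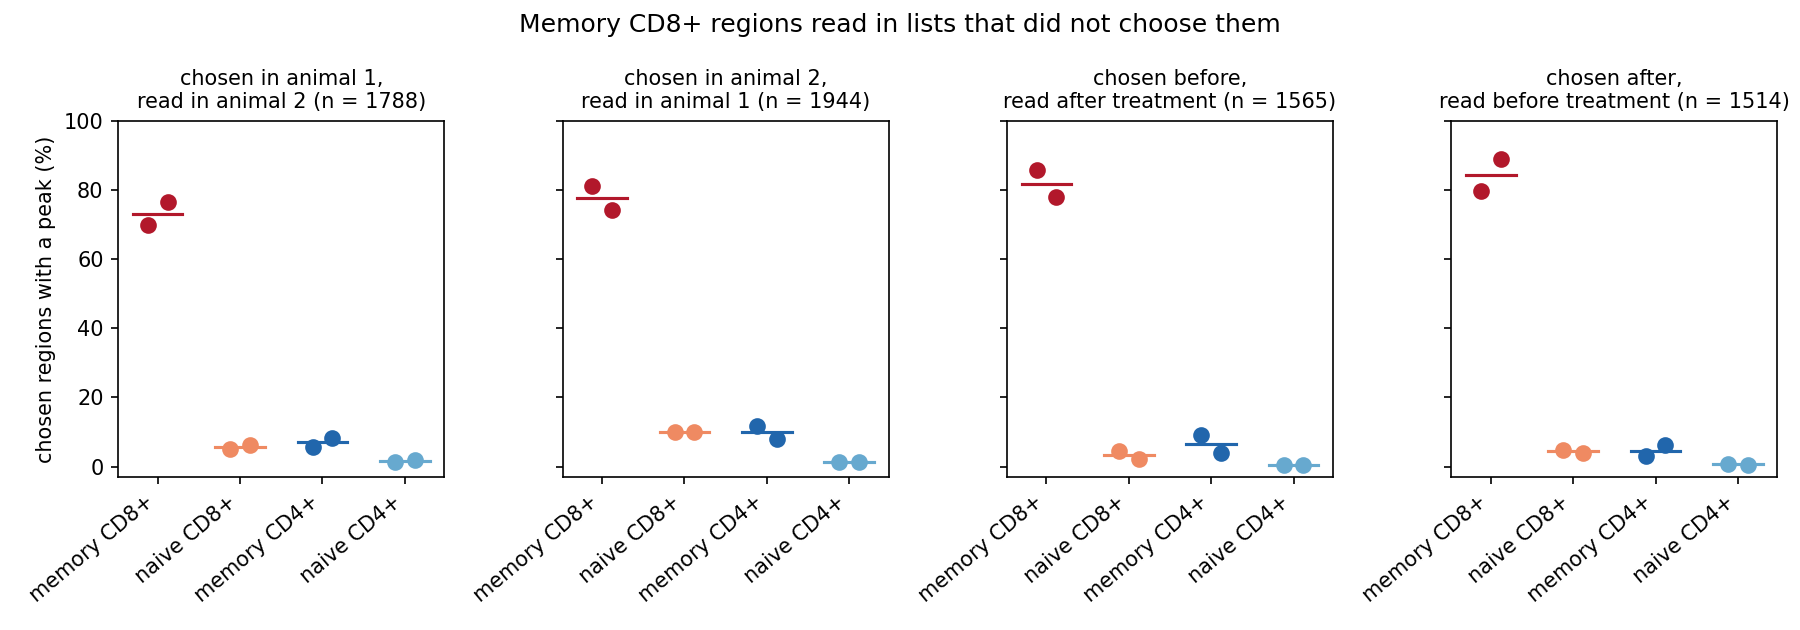
Share of regions with a peak (vertical axis, percent) in each list that did not take part in choosing them, for 4 ways to split the libraries into a choosing and a read part. Points are lists and lines the means of 2 lists. Memory CD8+ lists lie between 69.9% and 89.0%, and the other lists at 11.9% or below.

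How often a region was found again followed its strength in the lists that chose it. When the regions chosen in animal 1 were split into 4 equal parts by strength, the weakest part had a median percentile of 8.59, and in it the 2 memory CD8+ lists of animal 2 had a peak in 49.6% of cases. This share was 66.0% in the next part, 82.7% in the one after and 94.4% in the strongest, whose median percentile was 41.8. For regions chosen in animal 2 the shares in animal 1 were 54.9%, 73.3%, 87.2% and 95.3% from the weakest to the strongest part. In the other 6 lists of animal 2 the shares ran from 6.90% in the weakest to 3.36% in the strongest part. In animal 1 they were 5.90%, 5.28%, 6.17% and 11.2% from the weakest to the strongest part.

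Set beside the other populations, memory CD8+ regions were not always found again more often. Regions chosen in the same way for naive CD8+ cells in animal 1 were open in 80.3% of cases in the naive CD8+ lists of animal 2, and those chosen in animal 2 in 46.6% in animal 1, where these lists are the shortest of the study. For memory CD4+ cells these values were 64.3% and 71.2%, and for naive CD4+ cells 63.4% and 54.9%. The differences between populations in these values were not tested.

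Most of the 944 regions were weak to middling peaks of the memory CD8+ lists. Their median percentile by area score was 30.2 after and 27.4 before treatment in animal 1, and 25.7 after and 33.7 before treatment in animal 2. Few lay in the upper part of a list: 106 of the 944 (11.2%) were above the list's median in animal 1 after treatment and 89 (9.43%) before, and in animal 2 the numbers were 69 (7.31%) after and 134 (14.2%) before. In all 4 lists 25 regions (2.65%) were above the median, 0 were above percentile 75 (1 to 3 in a single list), and 13.0% were at or below percentile 25. At the summit the median −log10 p was 3.74 after and 3.65 before treatment in animal 1, and 3.49 after and 3.79 before in animal 2, against 4.45 to 4.69 over all peaks of these lists. They made up 2.32% to 2.39% of the peaks of each list.

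Other regions open in all 4 memory CD8+ lists but not in all 16 libraries, 5519 in number, were slightly stronger, with medians from percentile 30.7 to 37.1 in the same lists. Regions held by other single populations had, in their own lists, medians from 17.1 to 29.8 in naive CD8+, from 14.1 to 21.8 in memory CD4+ and from 13.99 to 19.1 in naive CD4+ cells. The range for memory CD8+ cells, 25.7 to 33.7, overlapped that of naive CD8+ cells, whose medians in animal 2 (29.4 after and 29.8 before treatment) were above 2 of the 4 memory CD8+ values, and lay above the ranges of both CD4+ populations. A score depends on the list that holds it, so these values are descriptions and no test was made of them.

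**Figure D2:**
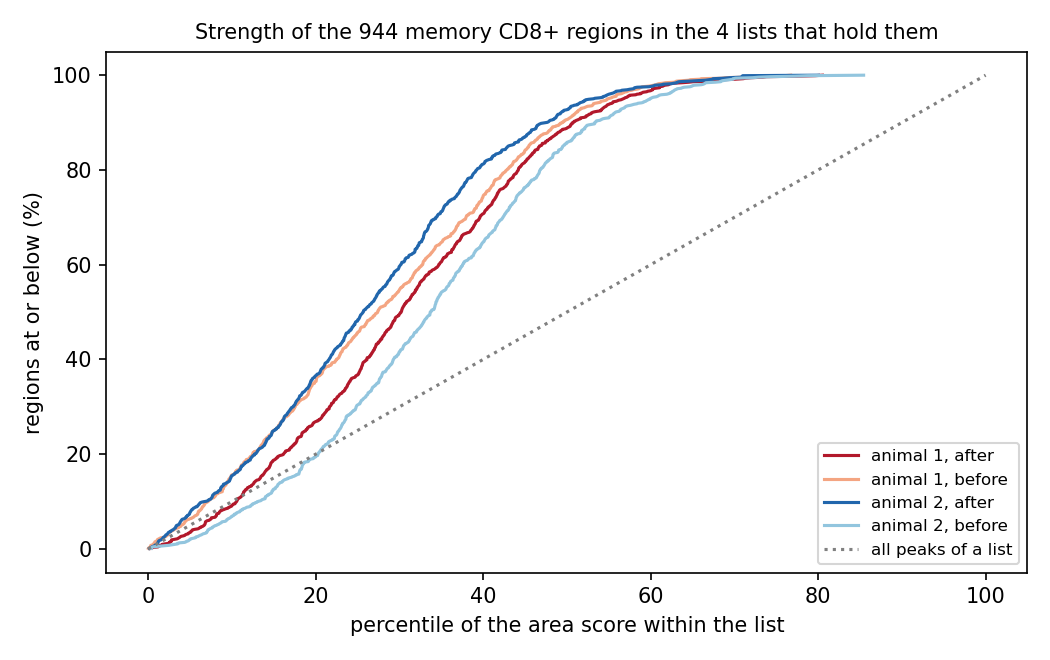
Cumulative share of the 944 regions (vertical axis, percent) by the percentile of their area score within each of the 4 memory CD8+ lists (horizontal axis), with a dotted line for all peaks of a list. At percentiles 25 and 50 all 4 curves lie above the line, with medians from percentile 25.7 in animal 2 after treatment to 33.7 in animal 2 before treatment.

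The region with the highest mean percentile, 77.8, lay on chromosome 11 from 10766200 to 10769721. Its area score was 4199 after and 2027 before treatment in animal 1, and 3930 after and 4959 before in animal 2. The next, on chromosome 13 from 66031231 to 66033642, scored 3441 after and 3097 before in animal 1, and 2617 after and 3972 before in animal 2. Both had scores well above the lists' median peaks, which ran from 1055 to 1231. Chromosome 6 held the region of rank 3, from 144310862 to 144314360, with 4318 after and 2525 before in animal 1, and 2810 after and 3167 before in animal 2. On chromosome 16, the region from 32833651 to 32837605 scored 3894 after and 1771 before in animal 1, and 2797 after and 3077 before in animal 2, and at 3955 bp it was also the widest of the 944.

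The other 6 of the 10 strongest had mean percentiles from 65.0 to 70.6. They lay on chromosome 16 from 9909473 to 9911977, chromosome 11 from 26132708 to 26134573, chromosome 12 from 119245601 to 119248321, chromosome 8 from 48286406 to 48289793, chromosome 7 from 16027296 to 16029582 and chromosome 9 from 97079735 to 97082615. The region on chromosome 7 was uneven, at percentile 67.6 after and 76.7 before treatment in animal 1, and 50.4 after and 66.6 before in animal 2. Next in width came regions of chromosome 11 from 9871409 to 9874998, with 3590 bp, and from 10766200 to 10769721, with 3522 bp. At the other end were regions on chromosome X from 46433969 to 46434384, chromosome 4 from 68437510 to 68438039 and chromosome 6 from 113662578 to 113663141. Their mean percentiles were 3.47, 3.49 and 5.17, and their scores lay close to the lowest that the lists hold, 200.

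The 944 merged regions had a median width of 1069 bp (quartiles 821 and 1386 bp), against 1244 bp for the 5519 other regions open in all 4 memory CD8+ lists and 2229 bp for those open in all 16 libraries. A merged region spans the peaks of every list that holds it, so regions open in more lists tend to come out wider. Within single lists, the median width of the strongest peak was 830.5 bp after and 708 bp before in animal 1, and 773.5 bp after and 831 bp before in animal 2. For the 5519 others these medians were 906, 785, 829 and 909 bp. Merged regions of the other single populations were narrower than the 944, with medians of 903 bp in naive CD8+, 930 bp in memory CD4+ and 873 bp in naive CD4+ cells. Of the 944, 857 (90.8%) had 1 peak in each memory CD8+ list and 87 had 2 or more in some list. In these 857 the summits of the 2 times lay a median of 21 bp apart in animal 1 and 35 bp in animal 2. Between the animals the median was 25 bp after and 29 bp before treatment. Summits of all 4 lists fell within 100 bp of each other in 63.6% of the 857, against 72.6% of 4920 other such regions, and all 4 peaks had a median of 57.3% of the region's width in common. In the 857 regions the summits were thus close in lists that were called separately, which the rule did not ask for beyond an overlap. They were less close than in the 4920 others, whose median distances were 14, 20, 16 and 19 bp in the same order. The part in common to all 4 peaks was alike, with a median of 55.4% in those others.

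The order of the regions by strength was only partly the same from list to list. Spearman's rho of area scores over the 944 regions was 0.57 between after and before in animal 1 and 0.73 in animal 2, and between the animals it was 0.61 after and 0.41 before treatment. Over the 5519 other regions these values were 0.80, 0.85, 0.77 and 0.65. These are correlations across regions of the same libraries, and regions are not independent replicates.

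The comparison of times within memory CD8+ cells asked whether these regions changed in rank during cyclodextrin dosing. Each region was ranked by area score among the 30796 regions open in all 4 memory CD8+ lists, so that the length of a list did not matter. The median rank percentile was 16.8 after and 15.7 before treatment in animal 1, and 14.6 after and 18.7 before in animal 2. The animals thus moved in opposite directions, with a median change of 1.22 points after minus before in animal 1 and -3.19 in animal 2. Median changes of the 5519 others were -0.42 in animal 1 and -1.31 in animal 2, and those of all 30796 regions -0.44 and 0.64. The bases covered by the lists moved likewise, to 63.1 Mb after against 55.4 Mb before in animal 1, and to 59.6 Mb after against 66.3 Mb before in animal 2, and their part in the result was not tested. Of the 944, 187 (19.8%) ranked higher after treatment in both animals, 294 (31.1%) ranked lower in both, and 462 (48.9%) moved in opposite directions. Over all 30796 regions these shares were 22.4%, 20.7% and 56.8%, and over the 5519 others they were 18.9%, 29.1% and 52.0%. Across the 944 regions, rho between the changes of the 2 animals was 0.05. No test was made, because an exact sign-flip test over 2 before-after pairs cannot go below p = 0.5, two-sided.

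Changes of over 10 points in the same direction in both animals were seen in 22 regions that ranked higher after treatment (2.33%) and 39 that ranked lower (4.13%), against 1.09% and 3.17% of the 5519 others and 0.646% and 1.03% of all 30796 regions. The region on chromosome 18 from 239524 to 240619 came first upwards when regions were ordered by the smaller of the changes in the 2 animals, at rank percentile 24.0 after and 5.90 before in animal 1, and 26.2 after and 4.75 before in animal 2. Next came chromosome 16 from 32428607 to 32429640, with differences of 16.8 points in animal 1 and 17.4 in animal 2, and chromosome X from 19351718 to 19352901, with 16.03 and 15.4. In the other direction, chromosome 9 from 133931037 to 133932805 stood at rank percentile 16.2 after and 40.6 before in animal 1, and 21.6 after and 44.3 before in animal 2. Chromosome 13 from 108469522 to 108471079 differed by -25.9 points (after minus before) in animal 1 and -21.4 in animal 2, and chromosome 12 from 31506883 to 31509119 by -18.1 and -38.8. These 6 regions are the extremes of 944 and carry no test.

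**Figure D3:**
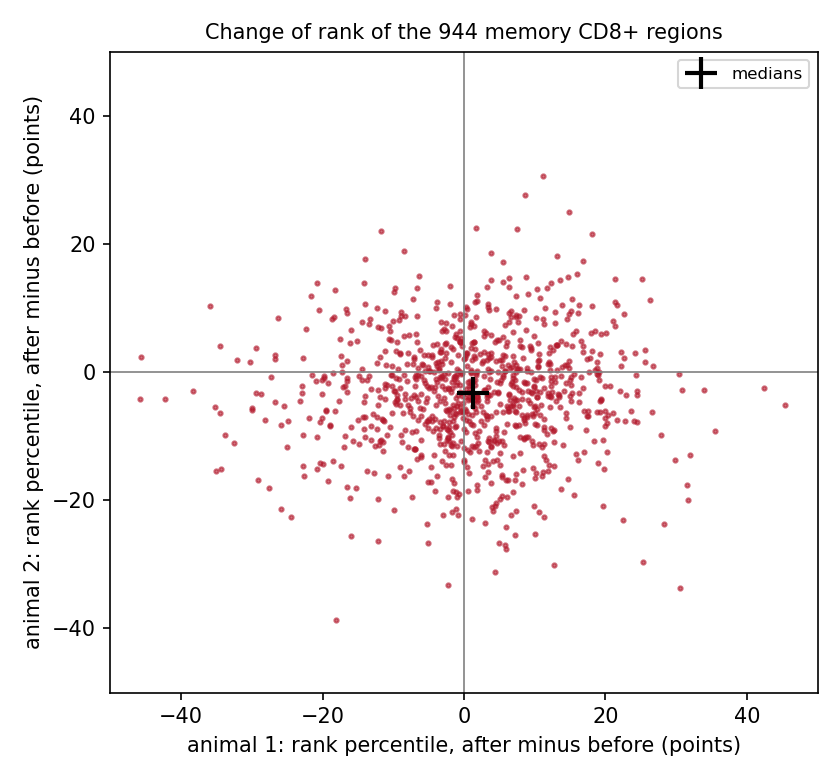
Change in rank percentile after minus before treatment, in points, for each of the 944 regions (red), animal 1 on the horizontal and animal 2 on the vertical axis, with a cross at the medians. The cloud shows no common direction, and the medians are 1.22 in animal 1 and -3.19 in animal 2.

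The regions lay on all 21 chromosomes with peaks, the 20 autosomes and X, at uneven rates. Chromosome 6 had the highest rate, 69 of its 2620 regions (2.63%), followed by chromosome 12 with 50 of 2127 (2.35%). Rates were lowest on chromosome 20, with 18 of 1951 (0.923%), and chromosome 19, with 24 of 2547 (0.942%). When only regions not open in all 16 libraries were counted, chromosome 6 still had the highest rate (4.49%) and chromosome 17 the lowest, with 13 of 794 (1.64%). Chromosome X held 17 of the 944.

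Many of the regions lay near each other, since 349 of 944 (37.0%) had another within 50 kb. They formed 137 groups, 96 of them of 2 regions and 41 of 3 or more. Shares for the sparser sets of the other populations were 21.2% in naive CD8+ (45 of 212), 42 of 168 in memory CD4+ and 9.09% in naive CD4+ cells, which cannot be compared directly because a larger set has closer members. The next region on either side was itself one of the 944 in 206 of 1888 cases (10.9%), against 1.70% of all regions. In naive CD8+ cells the share was 6.13% against 0.382%, in memory CD4+ cells 5.95% against 0.303%, and in naive CD4+ cells 4.96% against 0.218%. In all 4 populations the share was thus several times that among all regions.

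The largest group, on chromosome 16 from 9831642 to 9941170 (109.5 kb), held 8 of the 14 regions there. Memory CD8+ lists had peaks in 12 to 14 of the 14, naive CD8+ and memory CD4+ lists in 1 to 4, and naive CD4+ lists in 0. The rule fixed the 8 as open in every memory CD8+ list and in no other. Of the 6 remaining regions, 4 were open in all 4 memory CD8+ lists and 4 in at least 1 other list. The group's strongest region, from 9909473 to 9911977, scored 3394 after and 2302 before treatment in animal 1, and 2808 after and 2668 before in animal 2. The other 7 regions of the group had mean percentiles from 16.8 to 46.0.

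On chromosome 11, from 10746328 to 10769721, 5 of 7 regions within 23.4 kb were of the set, and the other 12 lists had no peak at all in the stretch. For those 5 regions the rule fixed this absence. The stretch ended in the strongest region of the 944. The 2 remaining regions of the stretch were open in the memory CD8+ list of animal 2 before treatment alone. On chromosome 6, from 146311088 to 146355231, the set had 6 of 10 regions within 44.1 kb, and 1 of the 10 was open in all 16 libraries. A group of 6 among 18 regions spanned 167.7 kb on chromosome 1, from 157090682 to 157258381, where memory CD8+ lists had 11 to 18 regions open and the other lists 1 to 5. The rule fixed the pattern of the 6. Of the 12 remaining regions, 5 were open in all 4 memory CD8+ lists and 5 in at least 1 other list. The group on chromosome 4, from 123353176 to 123410915, had 5 of 9 regions, and there naive CD4+ lists again had none open, naive CD8+ lists 1 or 2 and memory CD4+ lists 2. It was 1 of 5 groups of that size, and the shorter 2 are given here.

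**Figure D4:**
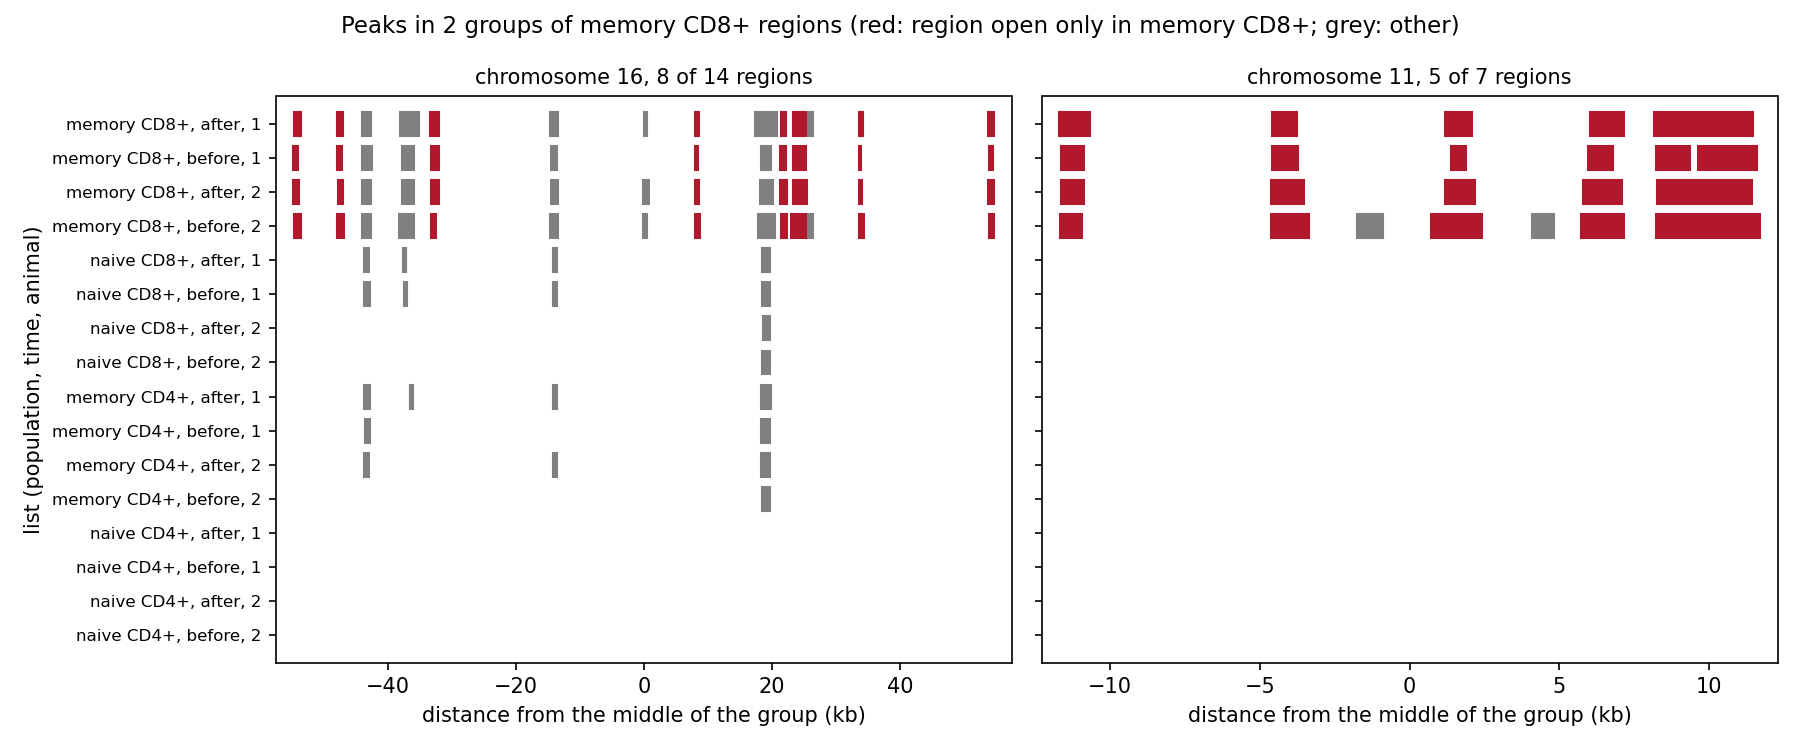
Peaks (bars) of the 16 lists, 1 list a row, in the groups on chromosome 16 and chromosome 11, by distance from the middle of the group in kb. Red bars belong to regions open in memory CD8+ cells only, which by the rule have no bar in other rows. Grey bars belong to other regions. Below the 4 memory CD8+ rows only the chromosome 16 group has peaks. There a row has from 1 to 4 in naive CD8+ and memory CD4+ cells and 0 in naive CD4+ cells.

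The neighbours of the 944 regions that were not themselves of the set also leaned towards memory CD8+ cells, a measure that the rule did not use. There were 1057 such neighbours not open in all 16 libraries. In the memory CD8+ lists they were open in 60.8% of cases after and 57.1% before treatment in animal 1, and in 52.1% after and 64.8% before in animal 2, against 34.5% to 40.9% for all 30172 regions of that kind. Memory CD4+ lists had 30.7% to 37.7% of them open, against 39.5% to 47.1%. Naive CD8+ lists had 27.5% to 28.8%, against 27.3% to 43.8%, and naive CD4+ lists 18.3% to 19.8%, against 40.6% to 41.6%. The mean difference from all such regions was 21.2 ± 2.88 percentage points in memory CD8+, -8.45 ± 7.68 in naive CD8+, -10.2 ± 1.54 in memory CD4+ and -22.4 ± 1.04 in naive CD4+ lists (SD, n = 4 lists of 2 animals each). The naive CD8+ value differed by animal. It was -4.94 after and 0.710 before in animal 1, whose naive CD8+ lists were the shortest, and -14.5 after and -15.1 before in animal 2. The 4 memory CD8+ lists, from 17.6 to 23.9, did not overlap the other 12, from -23.2 to 0.710. The same lists chose the 944 regions, so no test was made. A lean of this kind was seen in each population, since neighbours of naive CD8+, memory CD4+ and naive CD4+ regions were open more often in their own lists by 22.4, 23.9 and 24.0 percentage points.

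**Figure D5:**
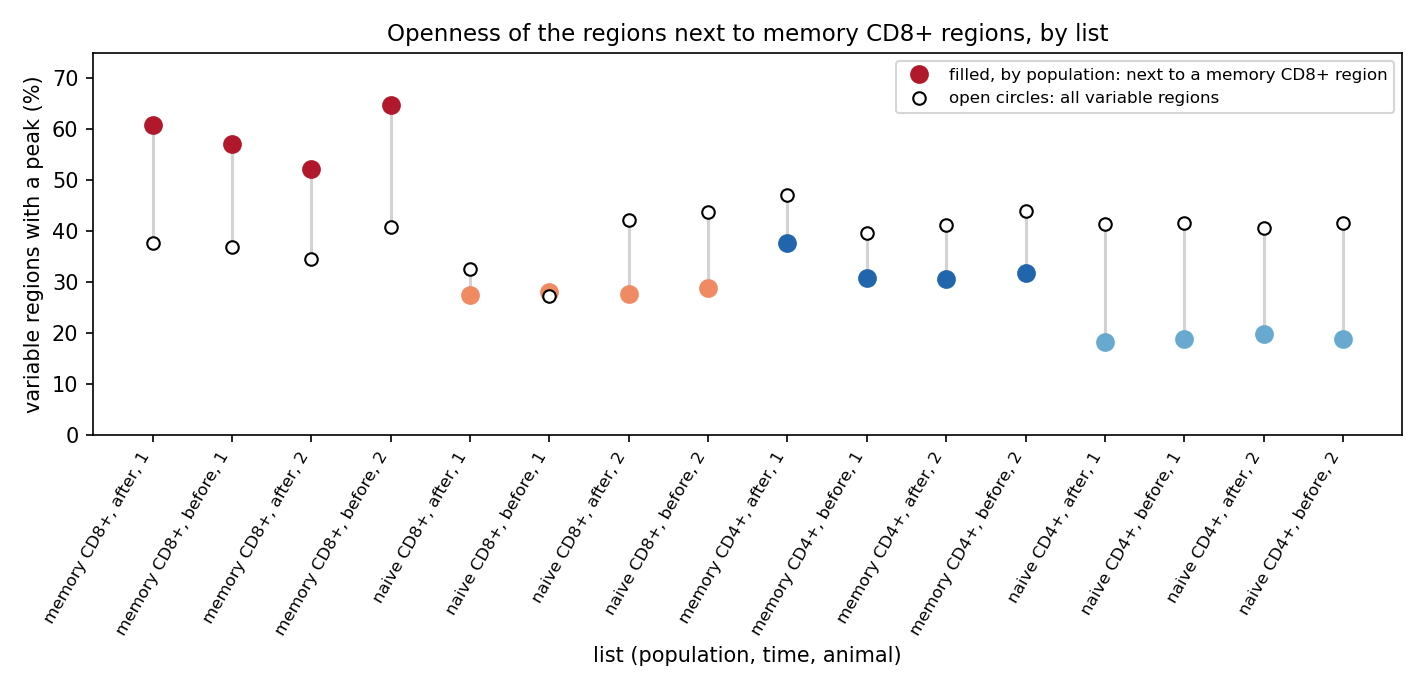
Share of regions with a peak (vertical axis, percent) in each of the 16 lists (horizontal axis), for 1057 neighbours of the 944 regions (filled) and for all 30172 regions of that kind (open). Filled points lie 17.6 to 23.9 percentage points above the open ones in memory CD8+ lists and 20.8 to 23.2 points below them in naive CD4+ lists.

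The median distance of the 944 regions to the nearest region open in all 16 libraries was 17.2 kb (quartiles 5.01 and 62.2 kb), against 12.8 kb (quartiles 3.57 and 39.8 kb) for the 30172 other variable regions. The 595 regions without another of the set within 50 kb had a median of 12.9 kb, close to that of the other variable regions, and the 349 with one had 29.2 kb. More than 50 kb away were 29.3% of the 944 and 20.7% of the others. For the other single populations the median was 24.5 kb in naive CD8+, 16.3 kb in memory CD4+ and 17.7 kb in naive CD4+ cells, so values of other populations lay on both sides of that of memory CD8+ cells. No test was made of these distances.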

How the data were processed

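ATAC-seq peak lists of 16 libraries, 1 per library and not pooled, were used as deposited. The submitters' processing notes name Genrich 0.6, Bowtie2 2.3.4.1, cutadapt 1.18 and the genome build rheMac10. Their settings, and whether reads were shifted for transposase binding or duplicates removed, are not given in the sources used. Each list gives the area score of a peak from the authors' caller (lowest 200) and, as deposited by the authors, the −log10 p at its summit (2.42 to 16.3). Counts of reads were not used here, so depth was unknown.

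Peaks sharing at least 1 bp were merged. Percentiles rank a region's strongest peak within its list. Held-out readings used an exact one-sided permutation test over lists, with Benjamini-Hochberg adjustment over 4 readings and a threshold of 0.05. These p-values give the share of splits of the lists read with a difference at least as large. The lists came from 1 or 2 animals, so the p-values measure no spread between animals. Pairing came from the animals named in the titles, and blocks by time or animal were the paired alternative. The code for merging and choosing regions was run on 20000 simulated regions, where 200 of 200 planted ones were recovered, and the permutation test was checked against scipy. Simulated peaks of a region always overlapped and neighbouring regions never touched. The simulation thus checks the code only, and split, weak or chained peaks were not tried.

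Regions named were the 10 strongest, 3 weakest and 3 widest, 5 largest groups, 3 largest shared changes in each direction (by the smaller of the 2 animals' changes) and 2 strongest near misses of each kind. The set and the lists were chosen with earlier results of these data known. Alternatives were lists of equal length (36307 peaks), summit −log10 p of at least 3.42, coverage of at least 50%, windows of 500 bp around summits, autosomes only, joining distances of 20 and 100 kb, each library left out, and, chosen after seeing the data, both naive CD8+ libraries of animal 1 left out. Planned gene annotation of the regions was not done, as the only gene table used here belongs to a different assembly. Python 3.11.15, numpy 2.4.6, pandas 2.3.3, scipy 1.17.1 and matplotlib 3.10.9 were used.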

Additional observations from a re-analysis of the deposited data

Results flagged for a closer look

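The change of the regions' median rank percentile after minus before treatment was 1.22 points in animal 1 and -3.19 points in animal 2. For the 5519 other regions open in all 4 memory CD8+ lists but not in all 16 libraries it was -0.42 and -1.31 points, and for all 30796 regions open in those 4 lists -0.44 and 0.64. The change of the 944 regions is given here because the 2 animals moved in opposite directions, and the difference between them was not tested, since each animal has 1 before-after pair.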

How the results depend on the processing

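The count of 944 regions was 881 with lists of equal length, 760 at the stricter threshold, 1082 with 50% coverage, 954 with windows around summits and 927 on autosomes only. Membership moved more than the count: 668, 364, 685 and 913 of the 944 were covered under the first 4 of these. With 1 library left out the count ran from 944 to 1143. Leaving a library out takes a condition away from the rule, so by design the count tends to stay or rise. The share with another region within 50 kb, 37.0%, became 26.8% at 20 kb, 45.0% at 100 kb, 44.4% with 50% coverage and, in an alternative chosen after seeing the data, 40.9% without both naive CD8+ libraries of animal 1.

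Differences in the 4 held-out readings stayed between 64.3 and 84.0 percentage points, with p = 0.0357 by the exact permutation test, under the 5 alternatives for peaks and chromosomes. With a replicate block they were 68.3 (animal 1 to 2), 70.5 (animal 2 to 1), 78.4 (before to after) and 81.1 (after to before) with an exact permutation p = 0.0625, since 16 splits allow no smaller value. With 1 read list left out they ran from 65.0 to 71.6, from 67.1 to 73.9, from 74.4 to 82.3 and from 76.5 to 85.7 in the same order. Without either memory CD8+ list 7 splits remain, and the exact permutation p was 0.143. Depth behind the lists was unknown and limits what a missing peak can show.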

Other observations

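Regions of the set that had another within 50 kb were slightly stronger than those that lay alone, with a median of the mean percentile of 30.8 (quartiles 22.0 and 40.9, 349 regions) against 27.7 (quartiles 19.2 and 36.7, 595 regions). Their median width was 1100 bp, against 1060 bp for those alone. Regions are not replicates, so these values carry no test.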
